A study of Sus scrofa with 12 samples.

Results

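The tricarboxylic acid (TCA) cycle and the oxidation of branched-chain amino acids were described through a list of 40 genes, chosen by function as the enzymes that bring pyruvate into the cycle, the cycle itself, the malate-aspartate shuttle and anaplerosis, the breakdown of leucine, isoleucine and valine, and ketone body use. Earlier results of these data were known when the list was chosen. Of the 35682 identifiers in the count files, 15623 could be given a symbol, and 39 of the 40 listed genes were among them. MPC1, a subunit of the mitochondrial pyruvate carrier, was not, and was not analysed here. All 39 passed the filter on low counts and were tested among 13844 genes.

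Hearts came from female Yorkshire pigs aged 10 to 12 weeks in which the left anterior descending coronary artery was blocked with a balloon for 60 min. From day 9 the immune system of all animals was suppressed with daily prednisolone (20 mg), mycophenolate mofetil (500 mg) and, at 0.75 mg per kg of body weight, tacrolimus. The animals had a thoracotomy on day 14 with either human vascular organoids in fibrin glue or the glue alone, and were studied 28 days after thoracotomy. The border zone was the tissue next to the infarct and the remote zone was the posterior wall, both at the mid level. There were 6 border zone and 6 remote zone libraries, 1 of each from animals 1022, 1322, 1323, 1623, 1922 and 3622. Which animals received organoids was not used here, so both zones mix treated and untreated animals. Both zones were taken from infarcted, immunosuppressed hearts, so the remote zone is not a healthy control.

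The TCA cycle oxidizes acetyl-CoA in the mitochondrial matrix and passes its electrons to the respiratory chain. Heart muscle is among the tissues richest in these enzymes and feeds the cycle from fatty acids, pyruvate, ketone bodies and amino acids. Branched-chain amino acids are first transaminated, then decarboxylated by the branched-chain ketoacid dehydrogenase, and their carbon enters the cycle as acetyl-CoA and succinyl-CoA. Genes of oxidative metabolism are known targets of estrogen-related receptors, nuclear receptors that bind a site with the core AAGGTCA.

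That core, or its reverse complement TGACCTT, was searched in the 300 bases before the RefSeq start of each gene on Sscrofa11.1, the build of the files. It was found before 3 of the 40 listed genes (7.5%) and before 765 of 19556 protein-coding genes (3.91%). The 3 sequences are shown because they are the members of the list that hold it, in the direction of transcription with the core in capitals. They lie at chr9:36524966-36525265 (plus strand), chr16:26659740-26660039 (minus strand) and chr11:19616115-19616414 (plus strand), and the first base of the core is 96, 263 and 126 bases before the start. A match of letters is a description and not a binding site.
ACAT1: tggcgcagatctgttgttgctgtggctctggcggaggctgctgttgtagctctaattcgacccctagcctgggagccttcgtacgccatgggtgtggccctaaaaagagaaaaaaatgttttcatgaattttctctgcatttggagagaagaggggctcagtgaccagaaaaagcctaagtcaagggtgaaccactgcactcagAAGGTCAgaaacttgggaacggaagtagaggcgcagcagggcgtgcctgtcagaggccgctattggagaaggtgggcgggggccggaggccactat
OXCT1: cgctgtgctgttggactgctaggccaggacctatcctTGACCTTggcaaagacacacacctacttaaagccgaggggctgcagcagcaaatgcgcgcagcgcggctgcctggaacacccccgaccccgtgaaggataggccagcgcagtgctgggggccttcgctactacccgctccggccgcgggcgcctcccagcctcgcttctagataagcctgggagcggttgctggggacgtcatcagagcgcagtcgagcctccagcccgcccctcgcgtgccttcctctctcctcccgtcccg
SUCLA2: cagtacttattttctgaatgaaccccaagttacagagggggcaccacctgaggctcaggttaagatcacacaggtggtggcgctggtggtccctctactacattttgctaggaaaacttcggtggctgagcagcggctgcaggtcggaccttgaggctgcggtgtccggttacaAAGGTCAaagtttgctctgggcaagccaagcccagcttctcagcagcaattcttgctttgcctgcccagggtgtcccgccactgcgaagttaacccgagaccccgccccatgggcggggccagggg

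Total counts per library ran from 15130210 to 30526110 for border zone samples and from 20091415 to 31618680 for remote zone samples. Defining cardiomyocyte genes were abundant in every library, with a summed level of 12 of 14 listed markers of 57557 to 97558 CPM in the remote libraries and 12507 to 69526 CPM in the border libraries. CPM is the count scaled to library size with TMM factors. Some libraries stood apart. The border zone library of animal 1022 held the lowest summed level of cardiomyocyte markers and the highest of 11 fibroblast and matrix markers, 69695 CPM against 3253 to 11992 CPM in the other border zone libraries. These markers summed to 1115 to 2761 CPM in remote samples. The border zone library of animal 3622 had counts on 28024 genes, against 17563 to 20148 in the other border zone libraries. The remote zone libraries of animals 1322 and 3622 had 21.4% and 33.5% of their counts on mitochondrially encoded protein genes, against 13.6% to 14.7% in the other remote zone libraries.

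Most of the listed genes had lower values in the border zone, but none of these differences passed the edgeR test. The summed level of the 39 genes was 3257 CPM at its lowest in the border zone, with a median of 10451 and a highest value of 14502, against 13206, 14633 and 15900.3 CPM in the remote zone. Of the 39 genes, 37 had a negative log2 fold change, border minus remote, with a median of -0.50. Across all 13844 genes the median was 0.04 and 46.7% were negative. By edgeR's quasi-likelihood test, none was called lower at a Benjamini-Hochberg adjusted p under 0.05, where 0.0144% of all genes were. That fit called 2 of the 13844 genes lower, so 0 such calls among the 39 say little about these genes. BCAT1 was called higher, where 2.06% of all genes were. At an unadjusted p under 0.05, 9 of the 39 were lower, where 7.78% of all genes were, and 1 was higher, where 17% were. The same fit with the animal as a replicate block called 0 of the 39 higher (0.289% of all genes) and 0 lower (0.00722%), with a median of -0.58.

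The Wald test of DESeq2 called 2 of the 39 lower (1.85% of all genes), BCAT2 and IDH3B, and 12 with that block added (8.67% of all genes). Those 12 were BCAT2, BCKDHA, BCKDHB, BCKDK, PCCB, ACAT1, MPC2, FH, IDH2, IDH3B, IDH3G and SUCLG1. Both versions also called BCAT1 higher (8.48% of all genes without the block and 9.15% with it). The number of members called lower thus moved from 0 to 2 with the tool, and from 2 to 12 within DESeq2 with the block.

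**Figure D1:**
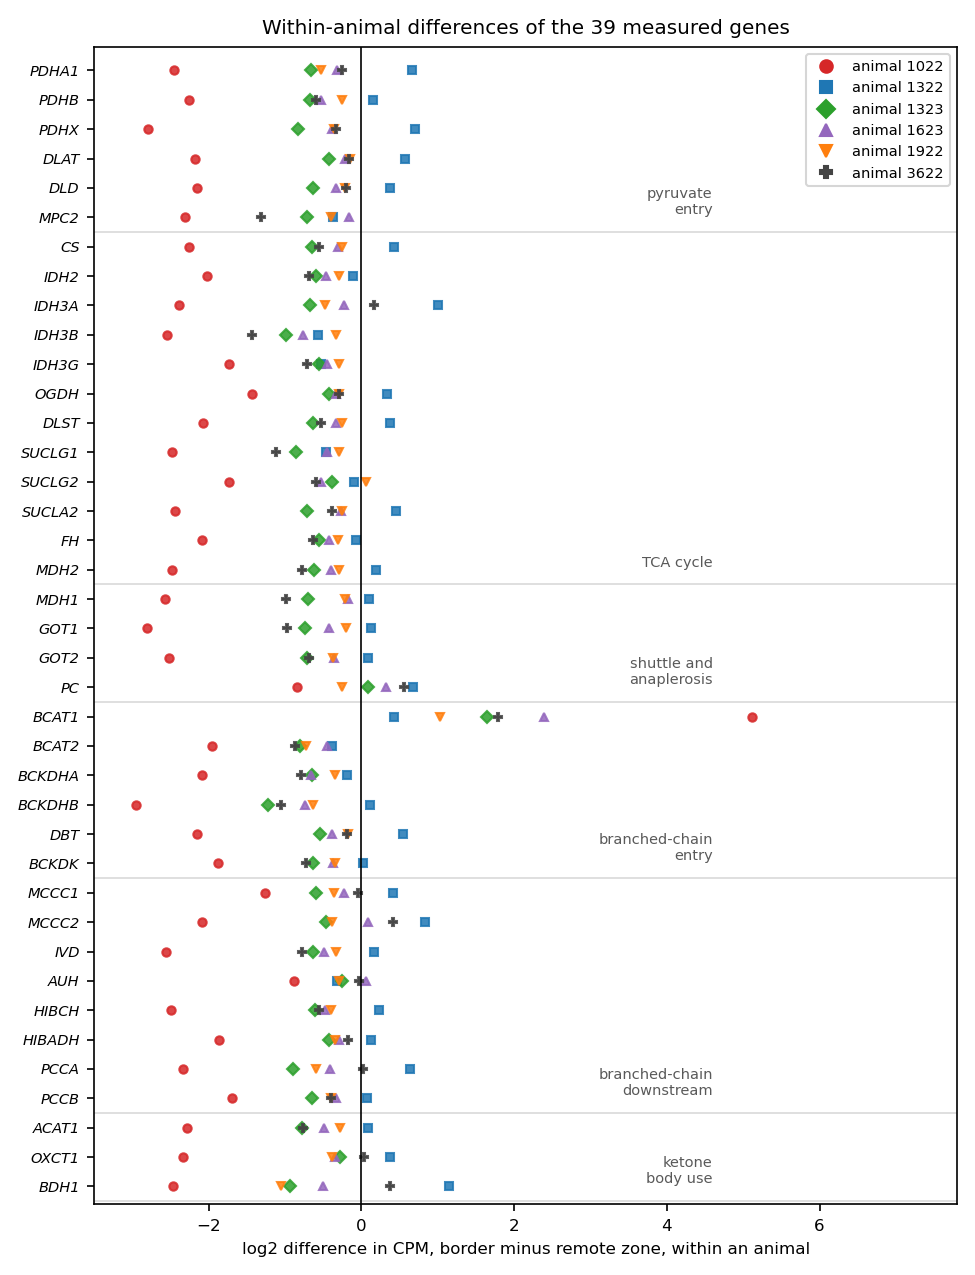
Log2 difference in CPM, border minus remote, within each of the 6 animals (symbols) for the 39 measured genes, grouped by role. Animal 1022 lies farthest to the left for most genes, animal 1322 lies mostly right of 0, and BCAT1 is to the right of 0 in 6 of 6 animals.

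Within animals, 8 of the 39 genes were lower in the border zone in 6 of 6 animals, where 11.2% of all genes were. They were MPC2, IDH2, IDH3B, IDH3G, SUCLG1, FH, BCAT2 and BCKDHA, and 32 genes were lower in 5 or more animals, where 25.4% of all genes were. The animals differed in size and direction. In animal 1022 the border zone was lower for 38 of the 39 genes, and the median log2 difference was -2.26. In animals 1323, 1623, 1922 and 3622, between 32 and 37 genes were lower, with medians of -0.64, -0.37, -0.31 and -0.55. In animal 1322 only 10 were lower, the other 29 were higher, and the median was 0.17. Border zone library 1022 held the lowest value of all 12 libraries for 37 of the 39 genes. Without both libraries of animal 1022 the median log2 fold change over the 39 genes was -0.29, and without those of animal 1322 it was -0.70.

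The differences of the listed genes lay close to those of the cardiomyocyte markers in each animal. All 12 measured cardiomyocyte markers had a negative log2 fold change, with a median of -0.51 and 0 called. The mean log2 difference of the markers was -2.28 in animal 1022, 0.10 in 1322, -0.48 in 1323, -0.25 in 1623, -0.31 in 1922 and -0.61 in 3622. That of the 39 genes was -1.97, 0.21, -0.58, -0.29, -0.32 and -0.42 in the same animals. Taken as the difference between these means, the listed genes lay 0.08 ± 0.15 (mean ± SD, n = 6 animals) above the marker list on the log2 scale, and 0.03 to 0.11 above it with 1 animal left out. Without BCAT1 the value was 0.01 ± 0.13. By the median over animals, 35 of the 39 genes were within 0.3 of the marker list. IDH3B and GOT2 lay below the list in 6 of 6 animals, and DLAT, PC and BCAT1 above it in 6 of 6. In bulk tissue, fewer cardiomyocytes and less RNA per cardiomyocyte cannot be told apart.

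**Figure D2:**
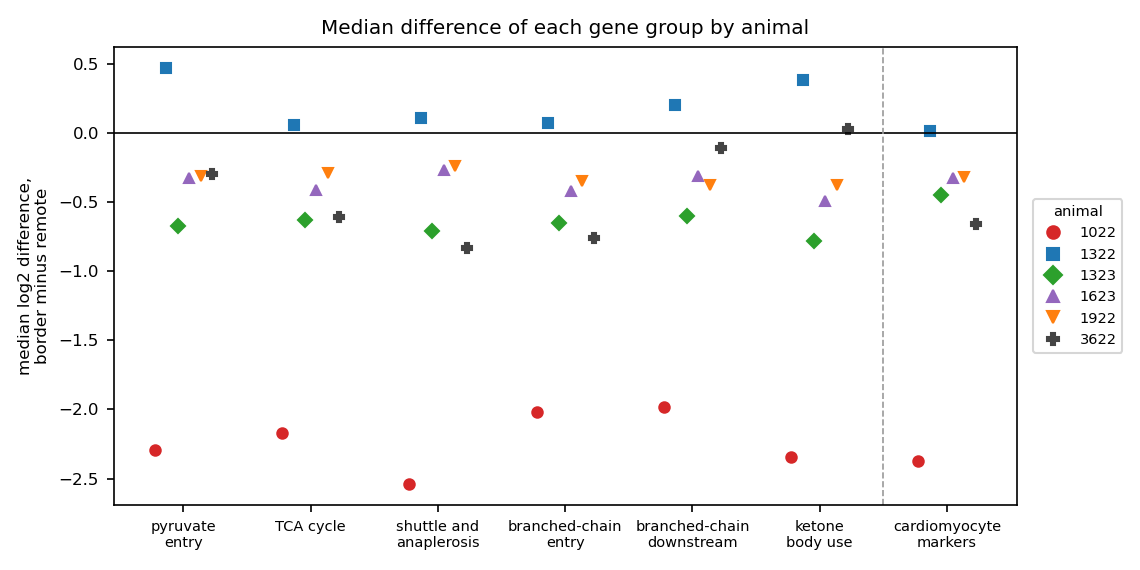
Median log2 difference, border minus remote, of each role group and, right of the dashed line, of the 12 cardiomyocyte markers, in each animal (symbols). Animal 1022 is the lowest in every group, and animal 1322 lies above 0 in every role group.

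The marker lists of the other cell types had positive median log2 fold changes. Of 11 fibroblast and matrix markers, 9 were called higher in the border zone by edgeR (2.06% of all genes), with a median of 2.93, but 1 with the animal as a replicate block (0.289% of all genes), with a median of 2.26. The 8 macrophage markers summed to 116 to 250 CPM in remote samples and 126 to 1466 CPM in border samples, with 0 called and a median of 1.55. The median was 1.13 for 7 smooth muscle and pericyte markers (0 called) and 2.06 for 4 adipocyte markers (0 called, and 1 with the block). It was 0.16 for 9 endothelial, 0.59 for 4 lymphocyte and 2.39 for 1 neutrophil marker, with 0 called. The part of these cell types in the lower values of the listed genes was not tested.

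Pyruvate enters the cycle through the mitochondrial pyruvate carrier and the pyruvate dehydrogenase complex. The 6 measured genes of this step had log2 fold changes of -0.74 to -0.32, with 0 called. MPC2, the other subunit of the carrier, had 35.4, 129 and 188 CPM (lowest, median and highest) in the border zone and 175, 195 and 299.7 CPM in the remote zone. The zones overlapped in a narrow range, and MPC2 was lower in the border zone in 6 of 6 animals, with a log2 fold change of -0.74 ± 0.31 (SE) and an adjusted p of 0.162 by edgeR's quasi-likelihood test.

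DLAT, the acetyltransferase core of pyruvate dehydrogenase, had 64.5, 232 and 276 CPM in the border zone and 177, 279 and 316 CPM in the remote zone, and the zones overlapped. Its log2 fold change was -0.32 ± 0.30 (adjusted p = 0.526 by edgeR), and -0.50 to -0.10 with 1 animal left out. The remaining subunits, PDHA1, PDHB, PDHX and DLD, had log2 fold changes between -0.55 and -0.41.

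All 12 genes of the cycle had negative log2 fold changes, from -0.93 to -0.36, and 0 were called. CS, citrate synthase, which makes the first product of the cycle, had 185, 589 and 909 CPM in the border zone and 676, 822 and 954 CPM in the remote zone. The border zone samples of animals 1322 and 1922 reached the remote range. The log2 fold change was -0.45 ± 0.30 (adjusted p = 0.364 by edgeR).

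IDH2 and FH were the members with every border zone library below every remote zone library, where 0.715% of all genes were. IDH2, the NADP-dependent mitochondrial isocitrate dehydrogenase, had 314, 965 and 1183 CPM in the border zone and 1269.7, 1332 and 1429 CPM in the remote zone. FH, fumarase, had 80.5, 221 and 276 CPM in the border zone and 281, 304 and 342 CPM in the remote zone. Both had a log2 fold change of -0.58, with adjusted p of 0.193 for IDH2 and 0.158 for FH by edgeR's quasi-likelihood test. They were singled out after their values were seen.

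IDH3A, IDH3B and IDH3G encode the subunits of the NAD-dependent isocitrate dehydrogenase, a regulated step of the cycle. IDH3B had the most negative log2 fold change of the 39 genes. It had 47.7, 179 and 289.5 CPM in the border zone and 280.3, 351 and 465 CPM in the remote zone, and the zones overlapped only between the border sample of animal 1922 and the remote sample of animal 1022. The log2 fold change was -0.93 ± 0.33 (adjusted p = 0.120 by edgeR, and 0.0834 with the animal as a replicate block).

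IDH3G was likewise lower in 6 of 6 animals, with 162 to 239 CPM in remote samples and 48.9 to 166 CPM in border samples. IDH3A was not: it was higher in the border zone in animals 1322 and 3622, whose remote zone libraries held 124 and 89.9 CPM, against 229.7 to 276 CPM in the other remote zone libraries. The CPM ratio of IDH3B to IDH3A was 3.32 and 5.17 in those remote zone libraries and 0.938 to 1.69 in the other 10 libraries.

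**Figure D3:**
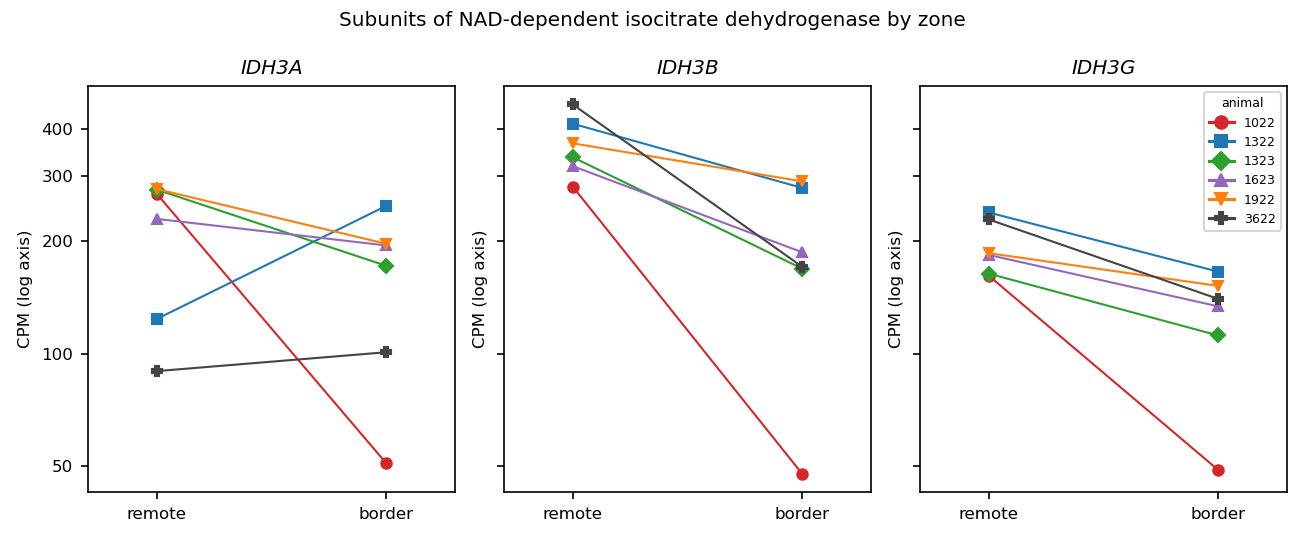
CPM (shared log axis) of the 3 subunit genes of NAD-dependent isocitrate dehydrogenase in the remote and border zone, with lines joining the libraries of 1 animal. IDH3B and IDH3G are lower in the border zone in 6 of 6 animals, whereas IDH3A is low in the remote zone libraries of animals 1322 and 3622.

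The remote zone libraries of animals 1322 and 3622 also differed from the other remote zone libraries in further members. Their mean log2 CPM was lower for 30 of the 39 genes, most for BDH1 (-1.36) and IDH3A (-1.30), and higher for 9, most for MPC2 (0.54), SUCLG1 (0.47), IDH3B (0.44) and IDH3G (0.43). Over the 39 genes these differences had a Spearman rho of -0.51 with exon length, as a description, since the genes share the same libraries. These are the libraries with the highest share of mitochondrially encoded counts, and the part of that share in the within-animal differences of animals 1322 and 3622 was not tested. Without both libraries the median log2 fold change of the 39 genes was -0.61 and 38 were negative. That fit called 0 of 14365 genes in either direction, so its 0 calls among the 39 say nothing about these genes.

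OGDH, the first subunit of the alpha-ketoglutarate dehydrogenase complex, had the smallest difference of the cycle. It had 471, 856 and 1186 CPM in the border zone and 918, 1114 and 1452 CPM in the remote zone, with overlap, and a log2 fold change of -0.36 ± 0.24 (adjusted p = 0.370 by edgeR). DLST, its succinyltransferase, had a log2 fold change of -0.46.

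Succinyl-CoA ligase pairs the SUCLG1 subunit with either SUCLA2, which makes ATP, or SUCLG2, which makes GTP. SUCLA2 had 41.8, 194 and 249.6 CPM in the border zone and 183, 234 and 309 CPM in the remote zone. SUCLG2 had 47.1, 127 and 184 CPM in the border zone and 135, 164 and 183 CPM in the remote zone. The zones overlapped for both, and the log2 fold changes were nearly equal, -0.43 ± 0.32 for SUCLA2 (adjusted p = 0.427 by edgeR) and -0.44 ± 0.25 for SUCLG2 (adjusted p = 0.287). The common subunit SUCLG1 was lower in 6 of 6 animals, with a log2 fold change of -0.78 and an adjusted p of 0.169 by edgeR. With the animal as a replicate block these were -0.93 and 0.104.

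MDH2, the mitochondrial malate dehydrogenase that closes the cycle, had 406, 1495 and 2232 CPM in the border zone and 1957, 2126 and 2429 CPM in the remote zone. The border zone samples of animals 1322 and 1922 reached the remote range, and the log2 fold change was -0.55 ± 0.32 (adjusted p = 0.292 by edgeR).

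The malate-aspartate shuttle carries reducing equivalents from the cytosol into mitochondria. MDH1, the cytosolic malate dehydrogenase, had 146, 696 and 982 CPM in the border zone and 822, 923 and 1142 CPM in the remote zone. GOT1, the cytosolic aspartate aminotransferase, had 97.4, 478 and 714 CPM against 623, 688 and 819.8 CPM. GOT2, its mitochondrial counterpart, had 161, 650.2 and 927 CPM against 865, 929 and 1028 CPM.

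For these genes the border zone libraries were lower in 5 of 6 animals and higher in animal 1322. The log2 fold changes were -0.56 ± 0.33 for MDH1, -0.60 ± 0.35 for GOT1 and -0.58 ± 0.31 for GOT2, with adjusted p of 0.308, 0.296 and 0.262 by edgeR's quasi-likelihood test. The CPM ratio of the mitochondrial to the cytosolic form was 1.75 to 2.62 in remote samples and 2.01 to 2.78 in border samples for MDH2 to MDH1, and 1.23 to 1.40 and 1.11 to 1.66 for GOT2 to GOT1.

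PC, pyruvate carboxylase, which refills oxaloacetate, was apart from the shuttle genes. It had 13.5, 17.8 and 21.2 CPM in the border zone and 12.0, 15.7 and 24.3 CPM in the remote zone. The remote range enclosed the border range, it was lower in the border zone in 2 of 6 animals, and its log2 fold change was 0.06 ± 0.18 (adjusted p = 0.873 by edgeR). The sign turned to -0.12 without the remote zone libraries of animals 1322 and 3622.

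The first step of branched-chain amino acid breakdown gave the only call among the 39 genes in the edgeR fit without the animal block. BCAT1 and BCAT2 encode the cytosolic and the mitochondrial aminotransferase for leucine, isoleucine and valine. BCAT1 (chr5:48814212-48925632) had 20.6 CPM in the border zone of animal 1022, 4.94 in 1623, 3.21 in 3622, 2.23 in 1323, 1.36 in 1922 and 1.27 in 1322, against 0.514 to 0.92 CPM in the remote zone. Every border zone library was above every remote zone library, where 1.99% of all genes were. It was higher in 6 of 6 animals, where 11.7% of all genes were.

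The log2 fold change of BCAT1 was 2.92 ± 0.66 (SE), with an adjusted p of 0.0395 by edgeR's quasi-likelihood test. The fit with the animal as a replicate block gave 2.14 with an adjusted p of 0.0838, so the call was lost. The call was also lost with both libraries of any single animal other than 1322 left out (adjusted p of 0.0722 to 0.134). It was kept with only the border zone library of animal 1022 left out. The log2 fold change was 1.71 without animal 1022 and 3.01 to 3.08 without 1323, 1623, 1922 or 3622. Those last 4 fits called 3, 0, 14 and 0 of all genes higher, against 285 with all animals, so few genes of any kind passed there. Counts were low in the remote zone, from 12 to 23 reads per library. The order of the animals by BCAT1 in the border zone was also their order by summed macrophage markers there (1466 CPM in 1022, 354 in 1623, 307 in 3622, 275 in 1323, 166 in 1922 and 126 in 1322). For fibroblast and matrix markers animal 1022 was highest and 1322 lowest, with another order between. In animal 1322 the macrophage markers were lower in the border zone (126 against 146 CPM), while BCAT1 was higher (1.27 against 0.92 CPM). In the other animals both were higher in the border zone. The orders differed in the remote zone, where BCAT1 was highest in 1322 (0.92 CPM) and the macrophage markers in 3622 (250 CPM). These orders were compared after the values were seen, and the part of these cells in the BCAT1 values was not tested.

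BCAT2 (chr6:54107682-54123595) went the other way. It had 70.6 CPM in the border zone of animal 1022, 127 in 1323, 144 in 3622, 181 in 1623, 183 in 1922 and 230.2 in 1322, against 221 to 303 CPM in the remote zone. Only the border zone library of animal 1322 reached the remote range. BCAT2 was lower in 6 of 6 animals, with a log2 fold change of -0.78 ± 0.24 and an adjusted p of 0.0866 by edgeR (0.0821 with the animal as a replicate block), and it passed by the Wald test of DESeq2 (adjusted p = 0.0156).

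**Figure D4:**
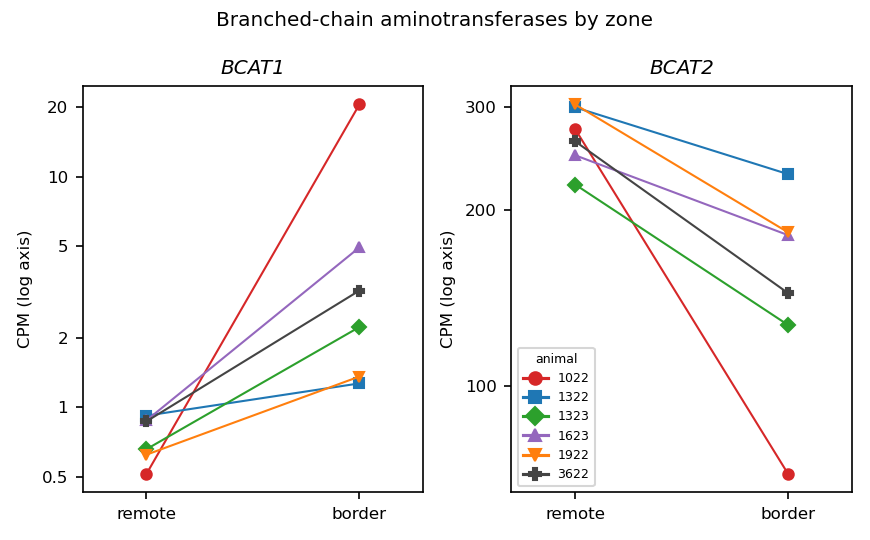
CPM (log axes) of BCAT1 and BCAT2 in the remote and border zone, with lines joining the libraries of 1 animal. BCAT1 spans 0.514 to 0.92 CPM in remote samples and 1.27 to 20.6 CPM in border samples, and BCAT2 is lower in the border zone in 6 of 6 animals.

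The CPM ratio of BCAT2 to BCAT1 was 283 to 534 in remote samples and 3.42 to 182 in border samples, so the zones did not overlap. Scaled to exon length, BCAT2 was still 12.3 times BCAT1 in the border zone library of animal 1022, the lowest of the 12 ratios.

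The branched-chain ketoacid dehydrogenase carries out the committed step. DBT, its acyltransferase core, had 8.94, 21.6 and 30.8 CPM in the border zone and 20.0, 28.4 and 40.3 CPM in the remote zone. The ranges overlapped, with a log2 fold change of -0.42 ± 0.28 (adjusted p = 0.370 by edgeR), and -0.63 to -0.14 with 1 animal left out. BCKDHA and BCKDHB, the decarboxylase subunits, had log2 fold changes of -0.68 and -0.84 (adjusted p of 0.132 and 0.155), and BCKDK, the kinase that switches the complex off, of -0.55 (0.203). The kinase and the complex it acts on had values in the same direction.

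Downstream enzymes split the carbon chains of the individual amino acids. With all animals included, all 8 had negative log2 fold changes, from -0.58 to -0.17, and 0 were called. IVD, isovaleryl-CoA dehydrogenase of leucine breakdown, had 40.5, 143 and 245 CPM in the border zone and 208, 215 and 296 CPM in the remote zone. Only animal 1322 had a higher value in the border zone, and the log2 fold change was -0.58 ± 0.33 (adjusted p = 0.286 by edgeR).

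MCCC2, a subunit of the leucine enzyme methylcrotonyl-CoA carboxylase, had 17.0, 46.9 and 81.4 CPM in the border zone and 33.8, 57.0 and 72.8 CPM in the remote zone. The border zone range enclosed the remote range, and the log2 fold change was -0.17 ± 0.29 (adjusted p = 0.757 by edgeR). The sign of MCCC2 turned to 0.10 without animal 1022. The valine enzymes HIBCH and HIBADH had log2 fold changes of -0.56 and -0.39, and PCCA and PCCB, the subunits of propionyl-CoA carboxylase, both had -0.49.

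Ketone bodies are used through BDH1, OXCT1 and ACAT1. ACAT1, which splits acetoacetyl-CoA and also acts in isoleucine breakdown, had 38.7, 139.8 and 195 CPM in the border zone and 184, 204 and 224 CPM in the remote zone. Only the border zone sample of animal 1322 reached the remote range, and the log2 fold change was -0.60 ± 0.28 (adjusted p = 0.210 by edgeR). OXCT1, which activates acetoacetate, had 129, 291 and 447 CPM in the border zone and 239, 375 and 658 CPM in the remote zone, with wide overlap. Its log2 fold change was -0.45 ± 0.30 (adjusted p = 0.371 by edgeR), and -0.65 to -0.12 with 1 animal left out. BDH1, which oxidizes hydroxybutyrate, had a log2 fold change of -0.50 and was lower in 4 of 6 animals.

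ACAT1, OXCT1 and SUCLA2, whose upstream sequences hold the core AAGGTCA or, for OXCT1, its reverse complement, had log2 fold changes of -0.60, -0.45 and -0.43, beside the median of -0.50 over the 39 genes.

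Scaled to exon length, levels in the remote zone spanned a wide range. The lengths are of all RefSeq exons of a gene merged, such as 10702 bases for BCAT1 and 1003 for MDH1. Rankings and ratios of scaled levels thus depend on the annotation. The highest medians were 1024 CPM per kb for MDH2, 919.9 for MDH1 and 733 for IDH2, and the lowest were 0.0713 for BCAT1, 4.45 for PC, 6.63 for DBT and 8.40 for AUH. DLAT had 110.2 CPM per kb and DBT, the equivalent core of the branched-chain complex, 6.63. BCAT1 and PC were the members with a border zone median above the remote zone median.

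**Figure D5:**
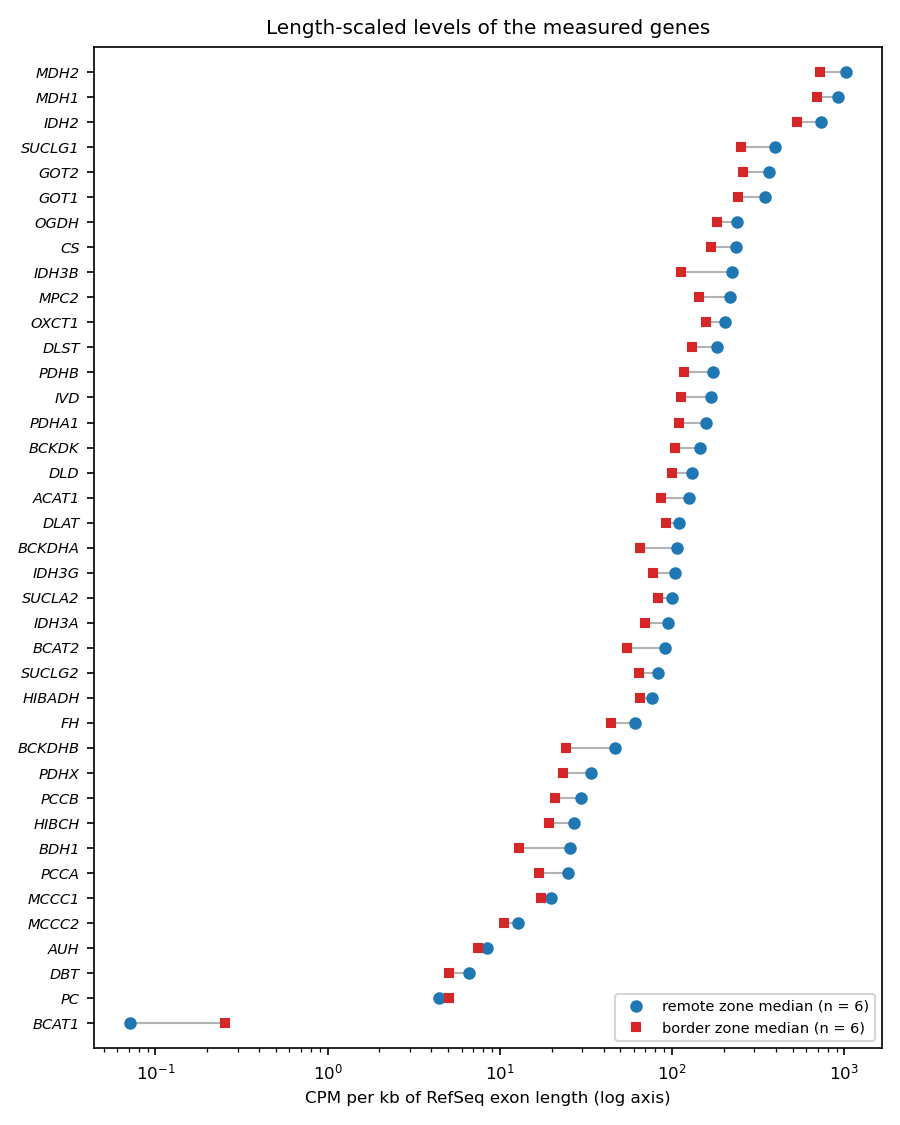
Median level in CPM per kb of RefSeq exon length (log axis) of the 39 measured genes in the remote zone (circles) and the border zone (squares), ordered by the remote zone. The border zone median is below the remote zone median for all genes but BCAT1 and PC.

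Other genes of these pathways, 56 listed and 52 with an identifier, gave 0 calls in either direction by edgeR among the 47 tested, where 2.06% of all genes were called higher and 0.0144% lower (0.289% and 0.00722% with the animal block). DESeq2 called 3 higher (8.48% of all genes), the amino acid transporters SLC7A5 and SLC7A8 and the glutamate carrier SLC25A22, and 1 lower (1.85%), HSD17B10 of isoleucine breakdown. With the animal block DESeq2 called 2 higher (9.15%), SLC7A5 and SLC7A8, and 14 lower (8.67%). Those named from DESeq2 were chosen after their values were seen. The kinases, phosphatases and lipoylation genes of pyruvate dehydrogenase had a negative log2 fold change in 8 of 9 genes (median -0.25), other cycle and anaplerotic genes in 10 of 13 (-0.23), mitochondrial shuttle carriers in 4 of 6 (-0.30), other branched-chain genes in 13 of 16 (-0.46), and other ketone body genes in 2 of 3 (-0.49). SDHA, the flavoprotein of succinate dehydrogenase, had a log2 fold change of -0.49 ± 0.29 (adjusted p = 0.299 by edgeR).

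PDK4, a kinase that inhibits pyruvate dehydrogenase, had 35.1, 97.9 and 216 CPM in the border zone and 70.2, 139 and 211 CPM in the remote zone, where the border range enclosed the remote range. Its log2 fold change was -0.25 ± 0.45 (adjusted p = 0.765 by edgeR), and 0.09 without animal 1022. KLF15, a transcription factor known to induce branched-chain breakdown, was lower in 6 of 6 animals (-0.74 ± 0.34, adjusted p = 0.192 by edgeR). DESeq2 called it lower with the animal block (adjusted p = 0.0137, 8.67% of all genes) but not without it (0.124). PPM1K, the phosphatase that activates the branched-chain complex, was lower in 5 of 6 animals (-0.66 ± 0.34). Its adjusted p was 0.237 by edgeR, and 0.0516 by DESeq2 with the animal block.

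Reads were counted without strand. Exons of 6 of the listed genes overlap exons of a gene on the other strand in RefSeq: BCAT2, CS, IDH3A, IDH3B, IDH3G and PDHA1. The partner genes NOP56 (of IDH3B), COQ10A (of CS), ACSBG1 (of IDH3A) and MAP3K15 (of PDHA1) had 17 to 28.2, 3.52 to 31.5, 0.323 to 3.16 and 0.855 to 4.31 CPM over the 12 libraries. SSR4, the partner of IDH3G, had 63.7 to 146 CPM, with 146 CPM in the remote zone libraries of animals 1322 and 3622, which also held the highest values of IDH3G. The part of SSR4 reads in the IDH3G values was not tested. The partner of BCAT2 and a further partner of IDH3B could not be matched to an identifier by symbol and were not analysed here.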

How the data were processed

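Poly(A) RNA libraries, made without strand information, were sequenced from 1 border zone and 1 remote zone sample of each of 6 animals. The authors aligned reads to Sscrofa11.1, counted them per gene and deposited raw counts, without normalization. Options for reads that match several genes are not given in the sources used here, so near-identical copies are uncertain. No per-sample column was left out (0 not used).

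The software was edgeR 4.0.16, DESeq2 1.42.0 and limma 3.58.1 under R 4.3.3, with tables made by pandas 2.3.3, SciPy 1.17.1 and NumPy 2.4.6 under Python 3.11.15. Zones were compared by edgeR's robust quasi-likelihood test with region as the only term, TMM factors and filterByExpr, and Benjamini-Hochberg adjustment over 13844 genes (threshold 0.05). This fit ignores the pairing by animal, and values per gene are from it unless another fit is named. The SE was the log2 fold change over the root of the test's F. CPM used TMM-scaled library sizes, and within-animal differences used log2 CPM with a prior count of 2. Exon lengths and gene positions came from RefSeq on Sscrofa11.1, with the exons of all transcripts of a gene merged. The steps were tested on simulated data drawn without pairing by animal. There the fit with region only recovered 34.3% of 2-fold and 82.3% of 4-fold changes.

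Library numbers are animal numbers, so they pair the libraries. Over 13844 genes, the r between deviations of an animal's libraries from their zone means was 0.345 on average, from -0.0303 (animal 1022) to 0.572 (animal 1323). Genes are not independent replicates.

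Genes described in full were the member called, the largest and smallest absolute log2 fold change of each role group, fixed pairs of isoenzymes, CS and OGDH, and 6 fixed genes of the wider pathways, of which 2 are not reported here. Others named were chosen after their values were seen. Members and lists were chosen with earlier results of these data known. The alternatives were the animal as a replicate block, DESeq2 with and without the block, scaling by library totals or by DESeq2 size factors, other prior counts, leaving out mitochondrial genes, no filter, a minimum of 10 counts per library, and each animal or the border zone library of 1022 or 3622 left out. Leaving out the remote zone libraries of 1322 and 3622 was added after seeing the data. The comparison of organoid and control animals was not analysed here.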

Additional observations from a re-analysis of the deposited data

Results flagged for a closer look

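In 15 of 62 groups of 6 libraries, 1 library lay far from the other 5 in log2 CPM, where chance gives about 1 in 20. The groups are not independent, since all 15 are the border zone library of animal 1022 at the low end. In that library ACAT1 was 5.28 (next lowest 6.91), DLAT 6.01 (7.41), GOT1 6.61 (8.47), GOT2 7.34 (9.07), IDH3B 5.58 (7.40) and MDH1 7.19 (9.17). MPC2 was 5.15 (6.91), SUCLA2 5.39 (7.19) and SDHA 8.01 (9.60). The mean log2 CPM was 5.58 over all 39 genes (next lowest 6.88), 5.58 for pyruvate entry (7.17), 6.75 for the TCA cycle (8.15), 6.22 for shuttle and anaplerosis (7.71) and 4.07 for branched-chain downstream genes (5.50). The cardiomyocyte markers stood apart in the same library, at 9.64 (next lowest 11.43).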

How the results depend on the processing

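Over 17 alternative fits, 368 of 391 values of 23 named genes kept their direction and their side of the threshold, 7 passed it anew, 9 lost it and 7 changed sign. All 9 losses were of BCAT1. The members called higher numbered 1, and 0 with the animal as a replicate block, with no filter, without border zone library 3622 and without the remote zone libraries of 1322 and 3622, and between 0 and 1 with 1 animal left out. The log2 fold change of BCAT1 was 2.85 with no filter (adjusted p = 0.0639), 3.04 without border zone library 3622 (0.0534) and 3.05 without those remote zone libraries (0.139). The members called lower numbered 0 in every edgeR fit, 2 by DESeq2 and 12 by DESeq2 with the replicate block. Of the 52 other pathway genes, 3 were called higher by DESeq2, 2 with its replicate block, 3 by library totals and 0 to 2 with 1 animal left out, and 1 and 14 were called lower by DESeq2 without and with the replicate block. The cause was not tested. The sign changed for MCCC2 (-0.43 to 0.10 with 1 animal left out, 0.04 by library totals, 0.10 without animal 1022, 0.0023 without border zone library 1022), PC (-0.07 to 0.25 with 1 animal left out, -0.07 without 1322, -0.02 without 3622, -0.12 without the remote zone libraries of 1322 and 3622) and PDK4 (-0.66 to 0.09 with 1 animal left out, 0.09 without 1022). The median over the 39 genes stayed negative in all fits, from -0.70 to -0.29 with 1 animal left out, and was -0.30 by library totals, which moved the median of all genes to 0.32. Over all genes, 285 were called higher and 2 lower, 40 and 1 with the replicate block, 1415 and 309 of 16688 by DESeq2, 1419 and 1344 of 15503 by DESeq2 with the replicate block, 1545 and 6 by library totals, 3 and 0 without animal 1323, 14 and 1 without animal 1922, 509 and 10 without animal 1322, and 0 and 0 without animal 1623, without animal 3622 or without the remote zone libraries of 1322 and 3622. BCAT1 had 12 to 23 counts per remote zone library, and the part of depth in its lost calls was not tested.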
